A study of Homo sapiens with 10 samples.

Results

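The 9 genes described here encode the enzymes of the transsulfuration route (CBS, CTH), of the methionine cycle that feeds it (MAT2A, MAT2B, AHCY, MTR, MTRR) and of the handling of the sulfur that leaves it (MPST, SQOR). They were taken by name from a deposited expression table of 20289 genes. All 9 were found, and all 9 had at least 1 FPKM in at least 2 libraries, as did 13077 genes in all. FPKM is a count of fragments scaled to the length of the transcript and to the depth of the library, so that levels of different genes can be set side by side.

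RNA was sequenced from 2 established human pancreatic ductal adenocarcinoma cell lines, PANC-1 and CFPAC-1, in 10 libraries. PANC-1 cells received 1 µM imidazole ketone erastin (IKE, 4 libraries) or 0.1% DMSO, its solvent (2 libraries). CFPAC-1 cells received 10 µM IKE (2 libraries) or 0.1% DMSO (2 libraries). Treatment lasted 24 h, and dead cells and debris were removed before collection, so only surviving cells were measured. The dose differs between the lines, so that line and dose cannot be told apart when their responses are compared. In bulk RNA, a change of level within cells cannot be told apart from a change in which cells survived, nor fewer cells of a kind from less RNA per cell.

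IKE, a derivative of erastin, blocks the cystine-glutamate antiporter through which many tumour cells take up cystine, their main outside source of cysteine. Transsulfuration is the route by which cells make cysteine themselves: CBS joins homocysteine to serine to give cystathionine, and CTH cleaves cystathionine to cysteine. The homocysteine comes from the methionine cycle, in which methionine is activated to S-adenosylmethionine, gives up its methyl group and is either rebuilt from homocysteine or lost to transsulfuration.

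The libraries held 11604 to 12248 genes at 1 FPKM or more, and mitochondrially encoded genes made up 2.65% to 5.27% of FPKM. The summed level of the 5 epithelial markers was 4847 to 6750 FPKM, although KRT7 was at 4.39 to 6.15 FPKM and EPCAM at 8.58 to 11.06 FPKM in PANC-1, against 271 to 330 FPKM and 152 to 158 FPKM in CFPAC-1. Of 13 markers of other cells, 10 stayed below 1 FPKM in every library, INS and GCG were listed at 0 throughout, and the summed level without CD68, PECAM1 and COL1A1 was 0.05 to 1.03 FPKM. PECAM1 (18.5 to 21.3 FPKM in CFPAC-1), COL1A1 (17.9 to 24.9 FPKM in PANC-1) and CD68 (24.0 to 46.3 FPKM across both lines) were the exceptions. Their part in the results was not tested.

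CBS needs its sequence shown first, because the annotation of GRCh38 carries a near-identical copy of it on the same chromosome and the table lists a level for each. CBS lies on chromosome 21 from 43053191 to 43076943 on the minus strand (ENSG00000160200), and the copy, CBSL, from 6444869 to 6468040 on the minus strand (ENSG00000274276). The GENCODE 29 transcripts CBS-202 and CBSL-203 are each 2353 bases long and differ at 1 base, C921T (the base of CBS first, positions counted from 1 at the 5′ end of the transcript). The stretch around that base, positions 891 to 951, is printed with the differing base in capitals.
CBS-202: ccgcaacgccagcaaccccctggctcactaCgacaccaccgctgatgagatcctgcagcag
CBSL-203: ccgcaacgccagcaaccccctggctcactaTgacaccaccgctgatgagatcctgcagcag
Of the 2254 windows of 100 bases in CBS-202, only 100 (4.44%) do not occur in the annotated transcripts of the copy. Reads from most of the transcript therefore cannot be assigned by their sequence, and the sources used here do not say how they were shared out. The level under either name is uncertain for that reason, so tests, shares and ranks of CBS are followed by those of the sum of both.

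A promoter window of RefSeq (GRCh38.p14, 250 bases before to 50 bases after the start) is shown for each of MAT2A and CBS, which were called with IKE, and for CTH, the partner of CBS. Windows were found for 7 of the 9 genes, 13 windows in all, and none for MTRR and MPST. In the CBS window at chr21:43076328-43076627 (minus strand) the capitals mark a match, read on the opposite strand of the window, to TGACNNNGC, the core of the antioxidant response element, whose first base lies 83 bases before the start. The window of CTH, at chr1:70411018-70411317 (plus strand), and that of MAT2A, at chr2:85538918-85539217 (plus strand), have no match and are in lower case throughout. CBS has further windows at chr21:43075786-43076085 and chr21:43068355-43068654, which have no match either and are not shown.
CBS: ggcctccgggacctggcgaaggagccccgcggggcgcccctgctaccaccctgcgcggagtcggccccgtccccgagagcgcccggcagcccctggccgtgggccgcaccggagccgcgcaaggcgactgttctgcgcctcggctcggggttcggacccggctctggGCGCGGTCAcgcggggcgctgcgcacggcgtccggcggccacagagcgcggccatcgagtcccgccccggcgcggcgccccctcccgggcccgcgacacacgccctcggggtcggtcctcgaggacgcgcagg
CTH: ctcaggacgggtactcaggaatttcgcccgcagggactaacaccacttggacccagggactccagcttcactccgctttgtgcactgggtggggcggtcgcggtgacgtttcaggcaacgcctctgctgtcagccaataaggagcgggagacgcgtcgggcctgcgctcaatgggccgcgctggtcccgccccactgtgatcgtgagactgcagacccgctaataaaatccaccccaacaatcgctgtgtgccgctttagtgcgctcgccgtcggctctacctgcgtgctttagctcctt
MAT2A: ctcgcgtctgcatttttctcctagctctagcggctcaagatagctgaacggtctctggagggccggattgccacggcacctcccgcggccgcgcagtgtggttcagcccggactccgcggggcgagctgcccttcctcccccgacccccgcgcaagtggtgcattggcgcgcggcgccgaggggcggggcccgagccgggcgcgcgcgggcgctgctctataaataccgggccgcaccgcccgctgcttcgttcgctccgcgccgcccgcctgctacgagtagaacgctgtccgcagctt
The letters TGACNNNGC occur, on either strand, in 4687 of 35116 RefSeq windows (13.3%), and among the 13 windows of the members in that 1 window of CBS. The letters TGATGNAA, the core of the element bound by C/EBP and ATF factors, occur in 1270 of 35116 windows (3.62%) and in none of the 13. These are matches of letters within a short window and say nothing of binding.

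CBS, which commits homocysteine to cysteine synthesis, rose with IKE in both lines, and by more in CFPAC-1. It stood at 40.41, 40.78, 38.50 and 41.74 FPKM in the PANC-1 IKE libraries, against 20.84 and 20.90 FPKM in the PANC-1 DMSO libraries. In CFPAC-1 it stood at 12.60 and 13.73 FPKM with IKE, against 3.02 and 2.61 FPKM with DMSO. Every IKE library was above every DMSO library of its line, and the CFPAC-1 IKE libraries stayed below the PANC-1 DMSO libraries. The mean was 40.4 ± 1.36 FPKM (SD, n = 4) in PANC-1 IKE and 20.9 ± 0.0424 FPKM (n = 2) in PANC-1 DMSO, a ratio of 1.93. In CFPAC-1 it was 13.2 ± 0.799 FPKM (n = 2) with IKE and 2.82 ± 0.290 FPKM (n = 2) with DMSO, a ratio of 4.68.

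Each change was tested with limma on log2(FPKM + 1), a scale that understates the change of low genes, with p-values adjusted over all 13077 genes and a threshold of 0.05. CBS rose by 0.92 on that scale in PANC-1 (SE 0.07, 95% interval 0.76 to 1.08, limma adjusted p = 1.82e-04) and by 1.89 in CFPAC-1 (SE 0.08, interval 1.71 to 2.08, limma adjusted p = 4.05e-07). The change in PANC-1 minus that in CFPAC-1 was -0.97 (interval -1.22 to -0.73, limma adjusted p = 0.00358), so the smaller rise in PANC-1, at the lower dose, lay beyond the spread between libraries. For CBS alone, all 3 calls held with each of the 10 libraries left out in turn. In level, CBS was above 84.0% of the 13077 genes in PANC-1 IKE and 68.5% in PANC-1 DMSO, and above 55.9% in CFPAC-1 IKE and 17.4% in CFPAC-1 DMSO.

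**Figure D1:**
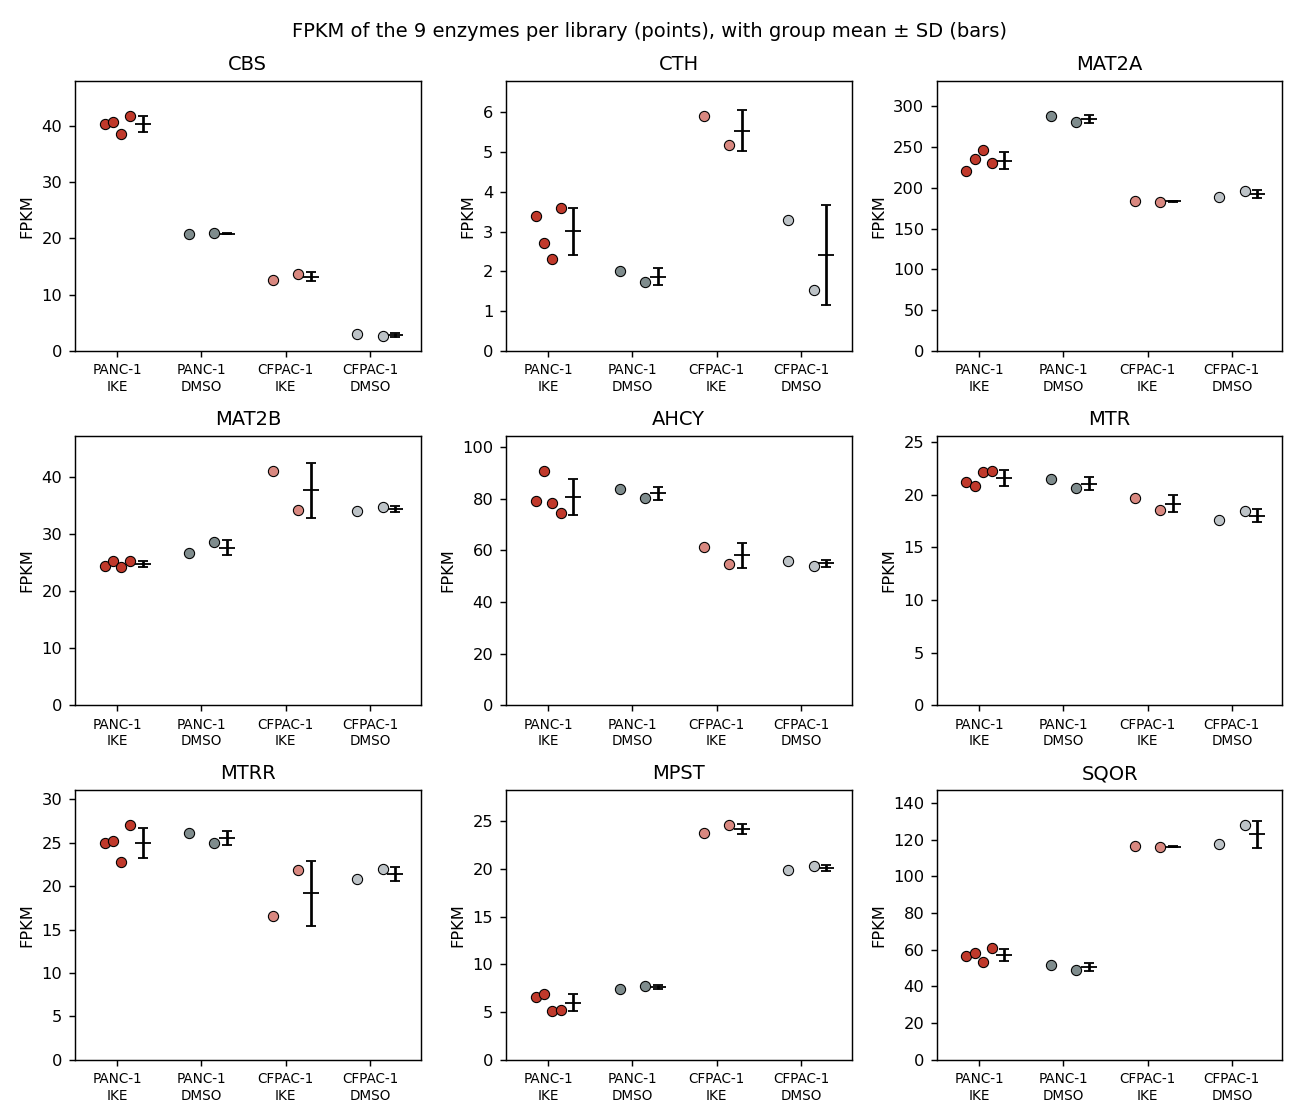
FPKM of the 9 enzymes (vertical axis, linear, from 0) in the PANC-1 IKE, PANC-1 DMSO, CFPAC-1 IKE and CFPAC-1 DMSO libraries. Points are libraries and bars are the group mean ± SD (n = 4 for PANC-1 IKE, 2 elsewhere). CBS separates all 4 groups, MAT2A is lower in the 4 PANC-1 IKE libraries than in both PANC-1 DMSO libraries, and MPST and SQOR differ mainly between the lines.

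The share of the summed level that was listed under the copy CBSL differed between the lines. CBSL was listed at 4.59, 6.34, 4.81 and 4.06 FPKM in PANC-1 IKE and at 2.86 and 3.94 FPKM in PANC-1 DMSO. In CFPAC-1 it was at 11.31 and 11.21 FPKM with IKE and at 3.16 and 2.98 FPKM with DMSO. CBSL thus made up 8.86% to 13.5% of the summed level in PANC-1 IKE and 12.1% to 15.9% in PANC-1 DMSO, but 44.9% to 47.3% in CFPAC-1 IKE and 51.1% to 53.3% in CFPAC-1 DMSO. The level listed under CBSL rose by 1.59 in CFPAC-1 (SE 0.17, limma adjusted p = 3.97e-04), while its change of 0.43 in PANC-1 was not called (limma adjusted p = 0.149). Whether that level comes from a gene separate from CBS was not tested, and neither was the reason for the different shares.

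The sum of CBS and CBSL averaged 45.3 ± 1.59 FPKM (n = 4) in PANC-1 IKE and 24.3 ± 0.806 FPKM (n = 2) in PANC-1 DMSO, and 24.4 ± 0.728 FPKM (n = 2) in CFPAC-1 IKE and 5.89 ± 0.417 FPKM (n = 2) in CFPAC-1 DMSO. In limma the sum changed by 0.87 in PANC-1 (adjusted p = 1.24e-04) and by 1.89 in CFPAC-1 (adjusted p = 3.41e-07), with a difference of -1.01 between them (adjusted p = 0.00225). On this scale, which understates the change of low genes, the rise with IKE was thus nearly the same for CBS alone and for the sum in both lines. The gap between the DMSO groups was not: CBS alone differed by 2.52 between PANC-1 and CFPAC-1 (limma adjusted p = 1.54e-10), a ratio of mean levels of 7.41, and the sum by 1.88 (limma adjusted p = 8.32e-10). The sum was above 86.2% of the other tested genes in PANC-1 IKE and 72.8% in PANC-1 DMSO, and above 74.6% in CFPAC-1 IKE and 31.7% in CFPAC-1 DMSO. For the sum, the CFPAC-1 IKE libraries (23.91 and 24.94 FPKM) lay around the PANC-1 DMSO libraries (23.70 and 24.84 FPKM).

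**Figure D2:**
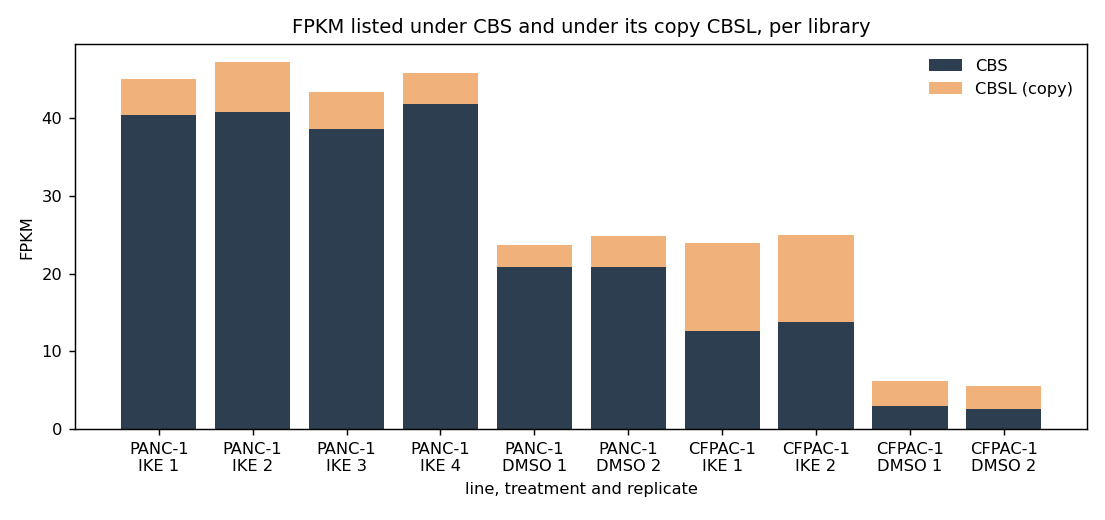
FPKM listed under CBS (dark) and under its copy CBSL (light), stacked for each of the 10 libraries. The vertical axis is linear and starts at 0. CBSL is 8.86% to 15.9% of the sum in PANC-1 and 44.9% to 53.3% in CFPAC-1, and the sum is higher with IKE in each line.

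CTH, the enzyme that releases cysteine from cystathionine, lies on chromosome 1 from 70411218 to 70439851 on the plus strand (ENSG00000116761) and had the lowest mean of the 9 genes in every group. It was at 3.40, 2.71, 2.31 and 3.59 FPKM in PANC-1 IKE, against 2.01 and 1.72 FPKM in PANC-1 DMSO. In CFPAC-1 it was at 5.90 and 5.18 FPKM with IKE, against 3.30 and 1.53 FPKM with DMSO. Every IKE library was above both DMSO libraries of its line, but the DMSO libraries of CFPAC-1 lay far apart. The log2 change was 0.47 in PANC-1 (interval 0.05 to 0.90, limma adjusted p = 0.234) and 0.99 in CFPAC-1 (interval 0.50 to 1.48, limma adjusted p = 0.0602), and neither was called. The CFPAC-1 value moved with the DMSO libraries: it was 1.37 without CFPAC-1 DMSO replicate 1 (limma adjusted p = 0.0115) and 0.60 without CFPAC-1 DMSO replicate 2 (limma adjusted p = 0.289). It was also called after quantile normalization (limma adjusted p = 0.0378) and with the replicate block (0.0348). Among genes of at least 5 FPKM in 2 libraries it was called too (limma adjusted p = 0.0417). CTH passed that filter only through the CFPAC-1 IKE libraries, so that call is not separate support. The difference between the lines, PANC-1 minus CFPAC-1, was -0.51 (interval -1.16 to 0.13, limma adjusted p = 0.508).

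CBS and CTH together made up 8.81% ± 0.463 of the summed FPKM of the 9 genes in PANC-1 IKE (n = 4) and 4.36% ± 0.0476 in PANC-1 DMSO (n = 2). In CFPAC-1 the share was 3.93% ± 0.114 with IKE and 1.12% ± 0.357 with DMSO (n = 2 each). With CBSL counted as CBS, the share was 9.72% ± 0.397 in PANC-1 IKE and 4.98% ± 0.197 in PANC-1 DMSO, and 6.14% ± 0.126 in CFPAC-1 IKE and 1.76% ± 0.397 in CFPAC-1 DMSO. The summed level of the 9 genes itself was 492 ± 12.0 FPKM in PANC-1 IKE and 522 ± 9.43 FPKM in PANC-1 DMSO, and 477 ± 6.39 FPKM in CFPAC-1 IKE and 469 ± 11.9 FPKM in CFPAC-1 DMSO. The ratio of CBS to CTH was 13.8 ± 2.46 in PANC-1 IKE and 11.3 ± 1.26 in PANC-1 DMSO, and 2.39 ± 0.364 in CFPAC-1 IKE and 1.31 ± 0.559 in CFPAC-1 DMSO. With CBSL counted as CBS, the ratio was 15.5 ± 2.99 in PANC-1 IKE and 13.1 ± 1.87 in PANC-1 DMSO, and 4.43 ± 0.539 in CFPAC-1 IKE and 2.76 ± 1.26 in CFPAC-1 DMSO. These shares and ratios are a description and were not tested.

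MAT2A encodes the catalytic subunit that makes S-adenosylmethionine from methionine in most tissues outside the liver. It lies on chromosome 2 from 85539165 to 85545280 on the plus strand (ENSG00000168906) and had the highest level of the 9 genes in every group. MAT2A was lower with IKE in PANC-1, at 221.31, 236.10, 246.42 and 230.53 FPKM, against 288.02 and 281.37 FPKM with DMSO. All 4 IKE libraries were below both DMSO libraries. In CFPAC-1 it was at 183.68 and 183.21 FPKM with IKE, against 188.57 and 196.16 FPKM with DMSO, a gap of a few FPKM between groups that also did not overlap. MAT2A fell by 0.29 on the log2 scale in PANC-1 (the fitted change was -0.29, SE 0.06, interval -0.41 to -0.16, limma adjusted p = 0.0238), a ratio of mean levels of 0.82. In CFPAC-1 the change was -0.07 (interval -0.21 to 0.07, limma adjusted p = 0.722), and the difference between the lines of -0.22 was not called (interval -0.40 to -0.03, limma adjusted p = 0.329).

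The call on MAT2A in PANC-1 is a narrow one. It was lost with the variance prior taken without a trend (limma adjusted p = 0.0684), in a fit of PANC-1 alone (0.0709) and with the replicate number as a block (0.0553). It was also lost without PANC-1 DMSO replicate 1 (limma adjusted p = 0.228), PANC-1 DMSO replicate 2 (0.122), PANC-1 IKE replicate 1 (0.0511), PANC-1 IKE replicate 4 (0.0622), CFPAC-1 IKE replicate 1 (0.0526) or CFPAC-1 IKE replicate 2 (0.0527). The value itself stayed between -0.32 and -0.26 under all of these, and between -0.38 and -0.26 under all alternatives that gave a value. Of the exon bases of MAT2A, 12.4% overlap GGCX on the opposite strand, which was at 25.75 to 32.73 FPKM in the 10 libraries. The libraries keep the strand, but the sources used here do not say whether fragments were assigned by strand, and the part of GGCX in the result was not tested.

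MAT2B, the regulatory subunit that pairs with MAT2A, lies on chromosome 5 from 163503114 to 163519336 on the plus strand (ENSG00000038274). It was at 24.43, 25.20, 24.26 and 25.28 FPKM in PANC-1 IKE, against 26.67 and 28.55 FPKM in PANC-1 DMSO, and at 41.11 and 34.23 FPKM in CFPAC-1 IKE, against 34.03 and 34.81 FPKM in CFPAC-1 DMSO. The groups did not overlap in PANC-1 and overlapped in CFPAC-1. Neither the change of -0.15 in PANC-1 (interval -0.31 to 0.02, limma adjusted p = 0.337) nor that of 0.12 in CFPAC-1 (interval -0.07 to 0.31, limma adjusted p = 0.614) was called. The ratio of MAT2A to MAT2B was 9.43 ± 0.506 in PANC-1 IKE and 10.3 ± 0.668 in PANC-1 DMSO, and 4.91 ± 0.625 in CFPAC-1 IKE and 5.59 ± 0.0664 in CFPAC-1 DMSO.

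AHCY splits S-adenosylhomocysteine, the product of methylation reactions, into adenosine and the homocysteine that CBS uses. It lies on chromosome 20 from 34280268 to 34311802 on the minus strand (ENSG00000101444). AHCY was at 79.19, 90.94, 78.31 and 74.69 FPKM in PANC-1 IKE, against 83.91 and 80.36 FPKM in PANC-1 DMSO, and at 61.42 and 54.77 FPKM in CFPAC-1 IKE, against 56.07 and 54.04 FPKM in CFPAC-1 DMSO. The groups overlapped in both lines. The log2 change was -0.03 in PANC-1 (interval -0.20 to 0.15, limma adjusted p = 0.907) and 0.07 in CFPAC-1 (interval -0.13 to 0.28, limma adjusted p = 0.806).

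MTR, the cobalamin-dependent methionine synthase that turns homocysteine back into methionine, lies on chromosome 1 from 236795281 to 236903981 on the plus strand (ENSG00000116984). MTRR, the reductase that keeps its cobalamin active, lies on chromosome 5 from 7851186 to 7906025 on the plus strand (ENSG00000124275). MTR was at 20.78 to 22.28 FPKM in the 4 PANC-1 IKE libraries, against 21.47 and 20.59 FPKM in PANC-1 DMSO, and at 19.69 and 18.55 FPKM in CFPAC-1 IKE, against 17.56 and 18.42 FPKM in CFPAC-1 DMSO. MTRR was at 22.80 to 27.03 FPKM in PANC-1 IKE, against 26.10 and 24.99 FPKM in PANC-1 DMSO, and at 16.52 and 21.83 FPKM in CFPAC-1 IKE, against 20.79 and 22.00 FPKM in CFPAC-1 DMSO. The IKE and DMSO groups overlapped except for MTR in CFPAC-1.

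The log2 changes of this remethylation pair were small and not called. They were 0.04 for MTR in PANC-1 (interval -0.11 to 0.18, limma adjusted p = 0.838) and 0.08 in CFPAC-1 (interval -0.08 to 0.25, limma adjusted p = 0.709). For MTRR they were -0.03 in PANC-1 (interval -0.26 to 0.19, limma adjusted p = 0.914) and -0.16 in CFPAC-1 (interval -0.42 to 0.09, limma adjusted p = 0.619).

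MPST makes sulfane sulfur and hydrogen sulfide from mercaptopyruvate, a product of cysteine, and lies on chromosome 22 from 37019635 to 37029822 on the plus strand (ENSG00000128309). It was at 6.54, 6.93, 5.15 and 5.26 FPKM in PANC-1 IKE, against 7.45 and 7.77 FPKM in PANC-1 DMSO. In CFPAC-1 it was at 23.78 and 24.58 FPKM with IKE, against 19.89 and 20.31 FPKM with DMSO. The groups did not overlap in either line, and the IKE libraries lay below DMSO in PANC-1 and above it in CFPAC-1. Neither change passed the threshold, at -0.31 in PANC-1 (interval -0.55 to -0.08, limma adjusted p = 0.159) and 0.25 in CFPAC-1 (interval -0.02 to 0.53, limma adjusted p = 0.410). The difference between them of -0.57 also missed it (interval -0.93 to -0.21, limma adjusted p = 0.207). With PANC-1 IKE replicates 3 and 4 alone, both the PANC-1 change (-0.47, limma adjusted p = 0.0182) and the difference (-0.73, limma adjusted p = 0.0299) were called.

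SQOR, the mitochondrial quinone oxidoreductase that starts the oxidation of sulfide, lies on chromosome 15 from 45631148 to 45691294 on the plus strand (ENSG00000137767). It was at 56.42, 58.50, 53.20 and 60.81 FPKM in PANC-1 IKE, against 51.95 and 48.83 FPKM in PANC-1 DMSO, and at 116.37 and 115.95 FPKM in CFPAC-1 IKE, against 117.81 and 127.99 FPKM in CFPAC-1 DMSO. The groups did not overlap in either line, with the IKE libraries above DMSO in PANC-1 and below it in CFPAC-1. The log2 change was 0.18 in PANC-1 (interval 0.04 to 0.32, limma adjusted p = 0.183) and -0.08 in CFPAC-1 (interval -0.25 to 0.09, limma adjusted p = 0.723). Of its exon bases, 28.5% are shared with AC090527.2 on the same strand, which was listed at 0.12 FPKM or less in every library.

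**Figure D3:**
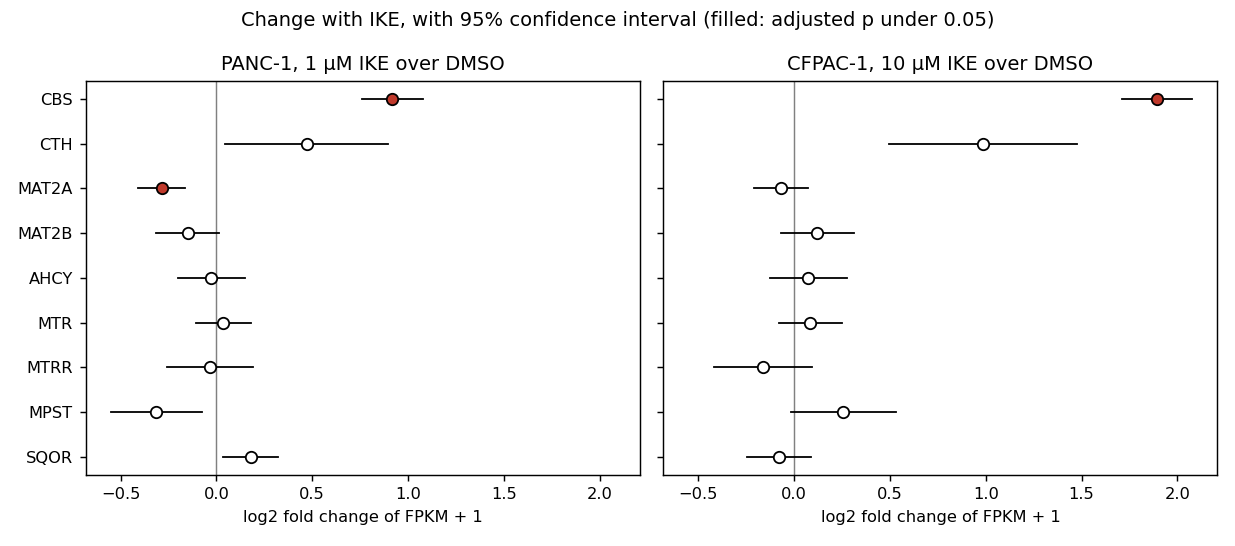
Fitted log2 change of FPKM + 1 with IKE (horizontal axis) for the 9 enzymes in PANC-1 at 1 µM (left) and CFPAC-1 at 10 µM (right), with 95% intervals; filled points have an adjusted p under 0.05. CBS is filled in both panels (0.92 and 1.89), MAT2A in PANC-1 (-0.29), and the other points are unfilled.

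Over the 9 genes, 2 were called in PANC-1 (CBS higher, MAT2A lower), where 2.38% of all tested genes were called, 1.21% higher and 1.17% lower. In CFPAC-1, 1 of 9 was called (CBS higher) and none lower, against 1.32% of all tested genes, 0.864% higher and 0.459% lower. In the difference between the lines 1 of 9 was called (CBS, lower in PANC-1), against 0.336% of all tested genes, 0.107% higher and 0.229% lower. Their median change was -0.03 in PANC-1 and 0.08 in CFPAC-1, and that of all tested genes was -0.01 in PANC-1 and 0.00 in CFPAC-1. IKE and DMSO libraries did not overlap for 3 of 9 members higher and 3 of 9 lower in PANC-1, against 12.3% and 13.6% of all tested genes. In CFPAC-1 they did not overlap for 4 of 9 higher and 2 of 9 lower, against 23.0% and 23.9%.

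In the order of levels among the 9 genes, MAT2A was first in every group. AHCY followed and then SQOR in PANC-1, and the other way round in CFPAC-1. CBS had rank 4 in PANC-1 IKE and rank 7 in PANC-1 DMSO, where it did not separate from MTR. In both CFPAC-1 groups CBS was next to last, and with DMSO its libraries overlapped those of CTH. The sum of CBS and CBSL had rank 4 in PANC-1 IKE and rank 6 in PANC-1 DMSO. In CFPAC-1 IKE it had rank 5, where it overlapped MPST, and in CFPAC-1 DMSO rank 8, clear of CTH. MPST stood above MTRR in CFPAC-1 IKE and below it in CFPAC-1 DMSO, without overlap in either group. Among other neighbours in the order, MTRR and MAT2B overlapped in PANC-1 IKE and MTRR and MTR in CFPAC-1 IKE.

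With the solvent alone the lines differed in 7 of the 9 genes, where 78.7% of all tested genes were called. PANC-1 was higher for 4 (CBS, MAT2A, AHCY and MTR) and lower for 3 (MAT2B, MPST and SQOR), against 43.4% and 35.2% of all tested genes. MPST averaged 7.61 ± 0.226 FPKM in PANC-1 DMSO and 20.1 ± 0.297 FPKM in CFPAC-1 DMSO, a log2 difference of -1.29 (limma adjusted p = 1.69e-06). SQOR averaged 50.4 ± 2.21 FPKM in PANC-1 DMSO and 122.9 ± 7.20 FPKM in CFPAC-1 DMSO, a log2 difference of -1.27 (limma adjusted p = 2.41e-08). MAT2A averaged 284.7 ± 4.70 FPKM in PANC-1 DMSO and 192 ± 5.37 FPKM in CFPAC-1 DMSO (0.56, limma adjusted p = 7.27e-06).

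AHCY averaged 82.1 ± 2.51 FPKM in PANC-1 DMSO and 55.1 ± 1.44 FPKM in CFPAC-1 DMSO (0.57, limma adjusted p = 1.34e-04). MAT2B averaged 27.6 ± 1.33 FPKM in PANC-1 DMSO and 34.4 ± 0.552 FPKM in CFPAC-1 DMSO (-0.31, limma adjusted p = 0.00629), a call lost without PANC-1 DMSO replicate 1 (limma adjusted p = 0.0514). MTR averaged 21.0 ± 0.622 FPKM in PANC-1 DMSO and 18.0 ± 0.608 FPKM in CFPAC-1 DMSO (0.21, limma adjusted p = 0.0209). Summed over all genes, FPKM was 405937 to 416406 in the CFPAC-1 libraries and 432300 to 472665 in the PANC-1 libraries. Over the alternatives other than left-out libraries, AHCY ran from 0.43 to 0.58 and MAT2A from 0.42 to 0.58. MAT2B ran from -0.44 to -0.31, MPST from -1.42 to -1.29 and SQOR from -1.41 to -1.27. The median over all genes was 0.12 in this comparison as deposited and -0.01 after median-ratio scaling, where MTR was no longer called (limma adjusted p = 0.345). MTR was also not called after quantile normalization (limma adjusted p = 0.113), without CFPAC-1 DMSO replicate 1 (0.106) or without PANC-1 DMSO replicate 1 (0.110).

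CTH and MTRR were not called between the lines. CTH differed by -0.21 (interval -0.70 to 0.28, limma adjusted p = 0.413), a value that was 0.18 without CFPAC-1 DMSO replicate 1 and -0.59 without replicate 2 (limma adjusted p = 0.0207). MTRR differed by 0.25 (interval -0.01 to 0.50, limma adjusted p = 0.0738) and was called without CFPAC-1 IKE replicate 1 (limma adjusted p = 0.0275) or CFPAC-1 IKE replicate 2 (0.0280), libraries that enter this comparison only through the shared estimate of spread.

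**Figure D4:**
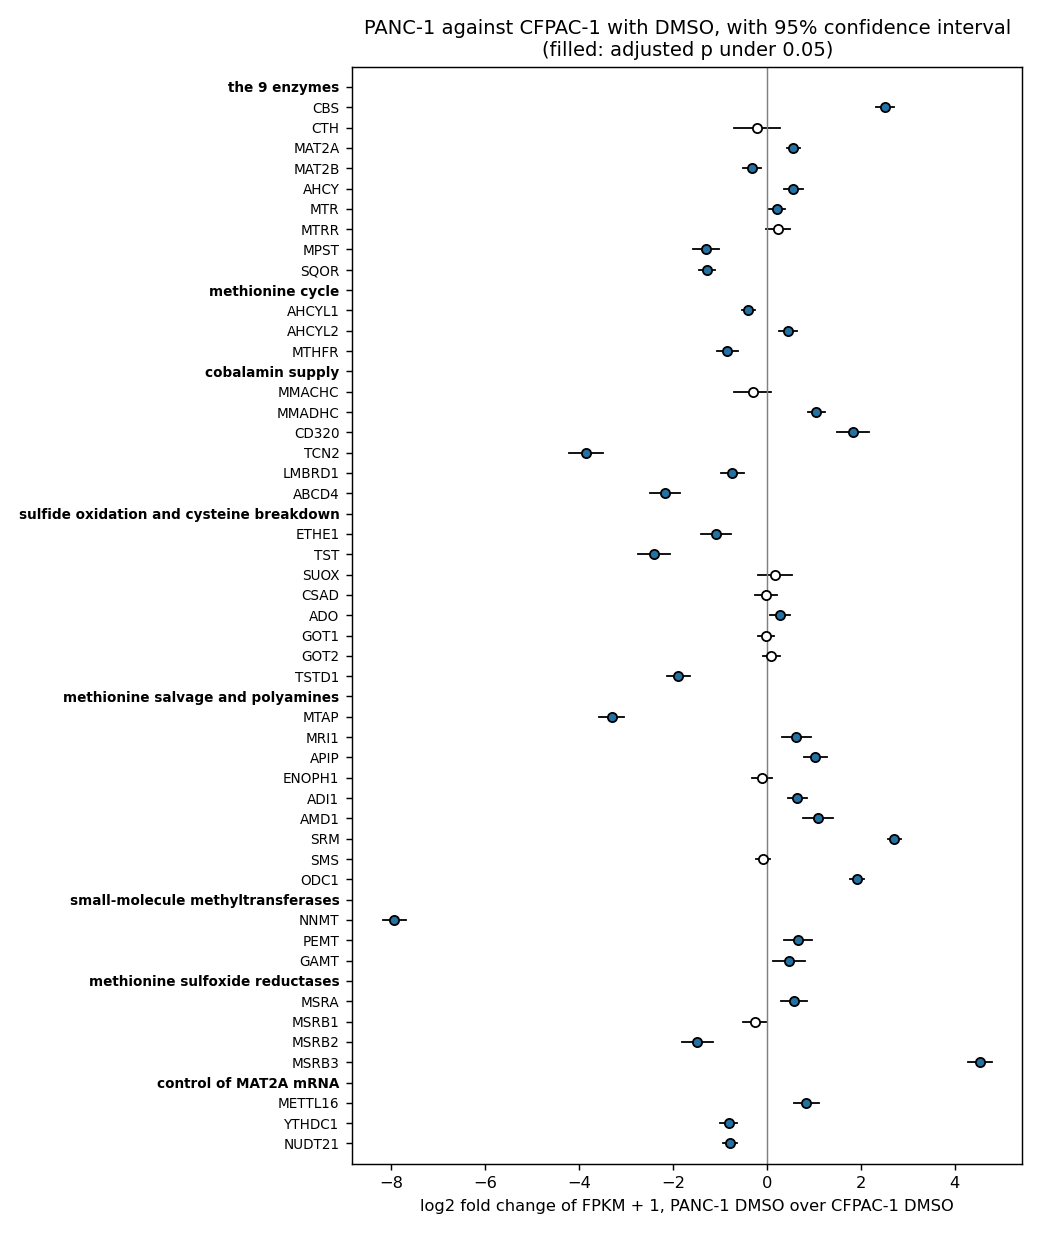
Fitted log2 difference of FPKM + 1, PANC-1 DMSO over CFPAC-1 DMSO (horizontal axis), with 95% intervals for the 9 enzymes and the 36 tested genes of the surrounding routes, grouped by role; filled points have an adjusted p under 0.05. Of the enzymes, CBS is farthest to the right (2.52) and MPST farthest to the left (-1.29); of the other genes, NNMT (-7.93) and MSRB3 (4.54) lie farthest out.

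Around the 9 genes, a list of 41 genes of the adjoining routes was followed, of which 36 were tested. MAT1A, BHMT, BHMT2, GNMT and CDO1, several of them known for their expression in liver, did not pass the filter. In PANC-1, 2 of the 36 rose and none fell, against 1.21% and 1.17% of all tested genes. GOT1, the cytosolic aspartate aminotransferase, which also passes cysteine's amino group on in the path to MPST, was at 42.24, 42.55, 38.73 and 38.11 FPKM with IKE, against 28.27 and 30.48 FPKM with DMSO (0.45, SE 0.07, limma adjusted p = 0.00738). ODC1, the first enzyme of polyamine synthesis, was at 121.90, 121.07, 115.09 and 123.52 FPKM with IKE, against 96.53 and 96.51 FPKM with DMSO (0.32, SE 0.06, limma adjusted p = 0.0171). All 4 IKE libraries were above both DMSO libraries for each gene. Without PANC-1 DMSO replicate 1 both calls were lost, with values of 0.39 for GOT1 (limma adjusted p = 0.137) and 0.32 for ODC1 (limma adjusted p = 0.168). The call on ODC1 was lost as well without PANC-1 DMSO replicate 2 (limma adjusted p = 0.119) and with the replicate block (0.0609).

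In CFPAC-1, none of the 36 genes was called by limma, against 1.32% of all tested genes. At an unadjusted p under 0.05, 1 was higher (AHCYL1, an AHCY-like protein) and 1 lower (SMS, spermine synthase), against 850 higher and 929 lower of all 13077 tested genes. GOT1 was at 27.47 and 26.70 FPKM in CFPAC-1 IKE, against 29.53 and 30.05 FPKM in CFPAC-1 DMSO (-0.13, limma adjusted p = 0.513). Its change differed between the lines by 0.58, PANC-1 minus CFPAC-1 (SE 0.10, limma adjusted p = 0.0434). This was the 1 call among the 36 in that comparison, where 0.336% of all tested genes were called. That call was lost with any library left out other than PANC-1 IKE replicate 2, with limma adjusted p-values of 0.0501 to 0.206. It was also lost with the replicate block (limma adjusted p = 0.0824), without a trend (0.0762), with a pseudocount of 0.1 (0.0569), and with PANC-1 IKE replicates 1 and 2 alone (0.0583) or 3 and 4 alone (0.0542). The value stayed between 0.51 and 0.65 under all of these. ODC1 was at 23.09 and 22.06 FPKM in CFPAC-1 IKE, against 23.80 and 25.54 FPKM in CFPAC-1 DMSO (-0.12, limma adjusted p = 0.459), and its difference of 0.44 was not called (limma adjusted p = 0.0656). The median change of the 36 genes was 0.03 in PANC-1 and -0.00 in CFPAC-1.

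The lines themselves differed in 28 of the 36 genes, 15 higher and 13 lower in PANC-1, against 78.7% of all tested genes, 43.4% higher and 35.2% lower. The median was -0.02, against 0.12 over all tested genes. NNMT, which uses S-adenosylmethionine to methylate nicotinamide, averaged 1.08 ± 0.311 FPKM in PANC-1 DMSO and 503 ± 24.3 FPKM in CFPAC-1 DMSO (-7.93, limma adjusted p = 4.30e-13). MTAP, which returns methylthioadenosine to methionine, averaged 2.46 ± 0.156 FPKM in PANC-1 DMSO and 33.1 ± 1.64 FPKM in CFPAC-1 DMSO (-3.30, limma adjusted p = 4.11e-10). TCN2, the plasma carrier of cobalamin, averaged 1.61 ± 0.255 FPKM in PANC-1 DMSO and 36.4 ± 0.955 FPKM in CFPAC-1 DMSO (-3.85, limma adjusted p = 1.12e-09).

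Of the 6 genes with the smallest p, 3 were higher in PANC-1. SRM, spermidine synthase, averaged 99.3 ± 2.69 FPKM in PANC-1 DMSO and 14.3 ± 0.276 FPKM in CFPAC-1 DMSO (2.72, limma adjusted p = 8.67e-12). ODC1 averaged 96.5 ± 0.0141 FPKM in PANC-1 DMSO and 24.7 ± 1.23 FPKM in CFPAC-1 DMSO (1.93, limma adjusted p = 1.77e-10). MSRB3, a methionine sulfoxide reductase, averaged 25.8 ± 3.34 FPKM in PANC-1 DMSO and 0.145 ± 0.0778 FPKM in CFPAC-1 DMSO (4.54, limma adjusted p = 1.74e-11).

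The genes whose pattern was most like that of the 2 members called with IKE were found by Pearson's correlation of log2(FPKM + 1) over the 10 libraries, after the DMSO mean of the line was subtracted. The libraries share their line and treatment, so the values are a description. Genes chosen in this way must share the pattern of the member, so their changes are not separate support. For CBS the closest were PHGDH (r = 0.998) and PSAT1 (r = 0.992), enzymes of serine synthesis, and ASNS (r = 0.993), asparagine synthetase. For the sum of CBS and CBSL the closest were PHGDH (r = 0.998), AARS1 (r = 0.996), an alanyl-tRNA synthetase, and PSAT1 (r = 0.992). The log2 changes were 1.06 in PANC-1 and 2.24 in CFPAC-1 for PHGDH, 1.10 and 2.47 for PSAT1, and 1.39 and 2.50 for ASNS. For MAT2A the closest were PCDH18 (r = 0.992), RXFP4 (r = 0.982) and GRIN2A (r = 0.980), with changes of -0.54, -0.68 and -0.36 in PANC-1 and of -0.06, -0.07 and -0.13 in CFPAC-1.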

How the data were processed

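Per the labels, rRNA was removed from total RNA, cDNA was primed at random and the second strand was degraded. HISAT2 2.1.0, StringTie 1.3.4, Bowtie2 2.2.8, fastp 0.18.0 and DESeq2 are named, with the build GRCh38, per the submitters' processing notes. The sources used here give neither the roles of the tools nor the annotation. The table deposited by the authors holds FPKM rounded to 2 decimals for 10 libraries, and 9 further columns, which are empty, were not used. It holds no counts, so neither depth nor counting error can be stated. The labels call the replicates bioreplicates but do not say that they were separate cultures. The p-values therefore describe the spread between these samples, which may be technical.

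limma 3.58.1 in R 4.3.3 was fitted on log2(FPKM + 1) to the 13077 genes that reached 1 FPKM in 2 or more libraries, with 4 group means over all 10 libraries and a trend in the variance prior (degrees of freedom were 6 residual and 5.1 prior). Tests were two-sided, with Benjamini-Hochberg adjustment over all these genes and a threshold of 0.05. The fit was also run on simulated data. Their noise was drawn from the fit's own estimates of spread, so that run cannot show how the fit performs on these libraries. Symbols, coordinates and overlaps come from GENCODE 29 on GRCh38 and promoter windows from RefSeq on GRCh38.p14. Protein sequences were not used here. Ranks, shares and most alike genes of CBS summed with CBSL were added after the data were seen.

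The named genes are the 9 members, CBSL, the genes of the adjoining routes called with IKE or in the difference, the 6 of these with the smallest p between the lines, and the 3 genes most like each member called with IKE. The members and lists were chosen with earlier results of these data known. The alternatives were each library left out in turn, quantile normalization, median-ratio scaling, CBS summed with CBSL, a minimum of 5 FPKM or no filter at all, a pseudocount of 0.1, no trend, a log2 fold change of 1 or more in size, the replicate block, each line fitted alone, and PANC-1 IKE replicates 1 and 2 or 3 and 4 alone.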

Additional observations from a re-analysis of the deposited data

Results flagged for a closer look

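Among the 9 members and the 36 tested genes of the adjoining routes, the change with IKE differed between the lines for 2 by the test of the difference itself. Of all 13077 tested genes, 44 (0.336%) were called in that comparison. CBS changed by 0.92 in PANC-1 and by 1.89 in CFPAC-1 on the log2(FPKM + 1) scale, a difference of -0.97 (limma adjusted p = 0.00358), with every IKE library above every DMSO library in both lines. For the sum of CBS and CBSL the difference was -1.01 (limma adjusted p = 0.00225). GOT1 changed by 0.45 in PANC-1 and by -0.13 in CFPAC-1, a difference of 0.58 (limma adjusted p = 0.0434), with the IKE libraries above DMSO in PANC-1 and below it in CFPAC-1. Of 19 alternatives, 14 ended the call on GOT1, the replicate block (limma adjusted p = 0.0824) among them, with values of 0.51 to 0.65. Dose and line cannot be told apart in either.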

How the results depend on the processing

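Of 706 values of the 9 genes, CBS summed with CBSL included, under the alternatives other than the fold-change requirement, 670 kept their direction and their side of the threshold, 14 lost the call, 9 gained one and 13 changed sign. The cause was not tested for any of these. The calls on CBS with IKE, in the difference and between the lines were kept under all of them, except that those in PANC-1 and in the difference were lost when a log2 fold change of at least 1 was required. That loss is of CBS alone: the requirement was not applied to the sum of CBS and CBSL, whose difference was -1.01. With that requirement the genes called were 12 in PANC-1, 33 in CFPAC-1, 13 in the difference and 4475 between the lines, of which 0, 1, 0 and 3 were members.

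Without a low-value filter 197 genes were called in PANC-1 and 112 in the difference, against 311 and 44 as reported. A fit per line called 189 in PANC-1, quantile normalization 262 in CFPAC-1 against 173, PANC-1 IKE replicates 1 and 2 alone 172 in PANC-1 and 17 in the difference, and replicates 3 and 4 alone 471 and 69. Members called in PANC-1 were 1 instead of 2 without a trend and in a fit per line. With PANC-1 IKE replicates 3 and 4 alone, members called there were 3, MPST included (limma adjusted p = 0.0182). In CFPAC-1 they were 2 instead of 1 after quantile normalization and at 5 FPKM, a level that CTH reached only with IKE in CFPAC-1. In the difference they were 2 instead of 1 with PANC-1 IKE replicates 3 and 4 alone. With each library left out in turn, the genes called ran from 42 to 504 in PANC-1, from 80 to 256 in CFPAC-1, from 13 to 62 in the difference and from 9523 to 10452 between the lines. Members called ran from 1 to 2 in PANC-1, from 1 to 2 in CFPAC-1 and from 5 to 8 between the lines, and stayed at 1 in the difference.

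Deviations of same-numbered libraries from their group means correlated at -0.00145 in CFPAC-1 and at 0.118 and -0.0266 in PANC-1. The 2 DMSO libraries of a line deviate as mirror images of each other, so these values cannot decide whether replicate numbers mark pairs. With the replicate number as a block, 149 genes were called in PANC-1 and 15 in the difference, with 1 member in PANC-1 and 2 in CFPAC-1, where CTH passed (limma adjusted p = 0.0348).

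The changes of sign were of small values. AHCY in PANC-1 was 0.047 with the replicate block and with PANC-1 IKE replicates 1 and 2 alone, and ran from -0.085 to 0.00875 with a library left out, positive without PANC-1 DMSO replicate 1 or PANC-1 IKE replicate 4. MTR in PANC-1 was -0.00305 with the block and with replicates 1 and 2 alone. MTRR in PANC-1 ran from -0.070 to 0.00911, positive without PANC-1 IKE replicate 3. CFPAC-1 IKE replicate 1 set the sign in 4 ranges over left-out libraries: AHCY in CFPAC-1 (-0.00712 to 0.16), MAT2B in CFPAC-1 (-0.00767 to 0.25), MTRR in CFPAC-1 (-0.35 to 0.028) and MTRR in the difference (-0.061 to 0.32). CTH between the lines was 0.14 after quantile normalization and ran from -0.59 to 0.18, positive without CFPAC-1 DMSO replicate 1.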
